A study of Homo sapiens with 6 samples.

Results

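The genes described here encode the calcium, sodium and potassium channels of the cell membrane and the subunits built into them. They were chosen by symbol and gene type in the deposited count table: the protein-coding genes whose symbols start with CACNA1, CACNA2D, CACNB or CACNG, sodium channel genes of the SCN series ending in A or B, and potassium channel genes of the KCN series. This gave 135 of the 60655 genes in the table, of which 26 belong to calcium, 14 to sodium and 95 to potassium channels. The level is given for all 135, and the difference between the groups for the 59 with 10 or more counts in each library. Of the remainder, 48 had at least 1 count but fewer than 10 in some library, and 28 had no count at all. The rule by symbol is wider than voltage gating, because 35 members of the KCNJ, KCNK and KCNN series are inward rectifier, background leak or calcium-activated potassium channels that do not open by sensing voltage. They make up 10 of the 59.

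The libraries came from WaGa, an established cell line of Merkel cell carcinoma (MCC) that carries Merkel cell polyomavirus. All cells were wild type and untreated, and were grown in RPMI medium. In RIP-seq, RNA that is pulled down from lysate with an antibody is sequenced, and here 3 libraries from an IP with an IGF2BP3 antibody (named IMP3 in the labels, an alias of the same protein) were compared with 3 libraries from an IP with IgG, the negative control. The replicates are called independent in the design, but the labels do not say whether they were separate cultures, so the p-values measure the spread between these libraries. All of them come from a single line, and input RNA was not analysed here. Levels are therefore those of RNA in the IP, and from bulk lysate a lower share of cells with an RNA and less RNA per cell cannot be told apart.

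Voltage-gated channels open when the membrane potential changes. Sodium channels carry the rapid upstroke of the action potential, calcium channels admit the calcium that triggers secretion and transcription, and potassium channels repolarize the membrane. Each channel has a pore-forming subunit that sets its selectivity and auxiliary subunits that control its trafficking and gating. Merkel cells of the skin are touch-sensitive, excitable and neuroendocrine, and MCC shares many of their markers. IGF2BP3 is an oncofetal RNA-binding protein of the IGF2 mRNA-binding family, whose members are known to bind N6-methyladenosine in the GGAC context and CA-rich elements. All 11 fixed markers of Merkel cell carcinoma and neuroendocrine cells, such as *KRT20*, *ATOH1* and *CHGA*, had 10 or more counts in each library, with a summed level of 2210 to 3484 TPM (a level scaled to transcript length and library size) per library, a median log2 fold change of -0.08 and none past the thresholds given below. The highest of them was *NCAM1*, a neural adhesion molecule, at 0.66 (adjusted p = 0.055 from edgeR, and 3.6e-08 with the replicate number as a block). Of 10 markers of fibroblasts, leukocytes, melanocytes and keratinocytes, only *DCN*, a matrix proteoglycan, had 10 or more counts in each library, with a mean of 41.4 TPM and a log2 difference of -0.21 (adjusted p = 0.39 from edgeR). *PTPRC*, *CD3E*, *MLANA* and *KRT14* were at 0, and the summed level of the 10 markers was 30.0 to 55.0 TPM per library.

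To show the kind of sequence in which the known motifs occur in these RNAs, the stretch of 60 coding bases with the most matches to GGAC or CACA was taken from the canonical transcript of 6 genes, namely the 3 that passed the thresholds in the IGF2BP3 IP and the 3 most abundant ones. The search was on the sense strand with overlapping matches counted, and both motifs can overlap, as in GGACACA. The sequences are those of GENCODE version 44 on GRCh38 and are identical to the genome, and capitals mark the matches. *SCN3B* is shown at chr11:123642585-123642644 (minus strand), *KCNAB2* at chr1:6051681-6051740 (plus), *KCNH2* at chr7:150950244-150950303 (minus), *CACNA2D1* at chr7:81991187-81991246 (minus), *CACNA1A* at chr19:13286515-13286574 (minus) and *KCND2* at chr7:120274792-120274851 (plus).
SCN3B: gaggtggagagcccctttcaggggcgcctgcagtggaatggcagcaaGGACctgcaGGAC
KCNAB2: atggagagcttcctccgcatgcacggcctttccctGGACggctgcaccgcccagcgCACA
KCNH2: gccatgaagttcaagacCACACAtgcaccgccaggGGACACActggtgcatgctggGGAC
CACNA2D1: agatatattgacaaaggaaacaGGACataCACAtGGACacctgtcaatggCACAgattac
CACNA1A: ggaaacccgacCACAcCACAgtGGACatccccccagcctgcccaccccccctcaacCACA
KCND2: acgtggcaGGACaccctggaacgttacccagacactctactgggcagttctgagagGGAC

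The *KCNH2* stretch held 5 matches. That number was reached by 0.0532% of 788891 windows of this length, taken every 20 bases in the coding sequences of tested genes. *CACNA2D1* and *CACNA1A* had stretches with 4 matches, which 0.345% of windows reached, and *SCN3B*, *KCNAB2* and *KCND2* had 2, which 10.8% reached. Each printed stretch is the best of its gene, whereas the windows were not selected. The shares therefore cannot say whether a gene's best stretch is unusual among the best stretches of other genes. The motifs were present in RNAs that passed the thresholds given below and in RNAs that did not. Over the whole coding sequence, the 59 channel genes had a median of 5.42 GGAC and 3.87 CACA per kb, against 4.49 and 4.28 in 11864 tested protein-coding genes. *SCN3B* had 4.65 GGAC and 0 CACA per kb, while *KCNH2* had 7.19 and 4.89, and *CACNA1A* had 7.72 and 2.79. Untranslated sequence was not searched. *SCN3B* has 645 coding bases in a canonical transcript of 5683, so most of its RNA was left out, against 3477 of 4292 in *KCNH2*. A match is a description of the letters and was not tested as a binding site.

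The channel RNAs were few in number and uneven in level. Of 135, 46 had a mean of at least 1 TPM over the 6 libraries, 20 at least 5 TPM and 11 at least 10 TPM, while 31 were at 0 TPM. Together they held 0.0977%, 0.110% and 0.111% of the counts in the IgG libraries (replicates 1 to 3), against 0.114%, 0.127% and 0.120% in those of the IGF2BP3 IP. Each IGF2BP3 IP library was above each IgG IP library, and the ratio of the means was 1.13 (0.106% ± 0.00724 and 0.120% ± 0.00653, SD, n = 3 each, p = 0.1 by an exact two-sided permutation test, the smallest this design allows). In summed TPM the groups overlapped, at 309, 421 and 406 in the IgG IP against 357, 516 and 485 in the IGF2BP3 IP (ratio 1.20, exact permutation p = 0.3), and replicate 1 was the lowest of its group in both. Within each of the 3 pairs of the same replicate number, the IGF2BP3 IP was the higher. The 10 most abundant genes accounted for 62.6% to 69.6% of the summed level in a library.

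**Figure D1:**
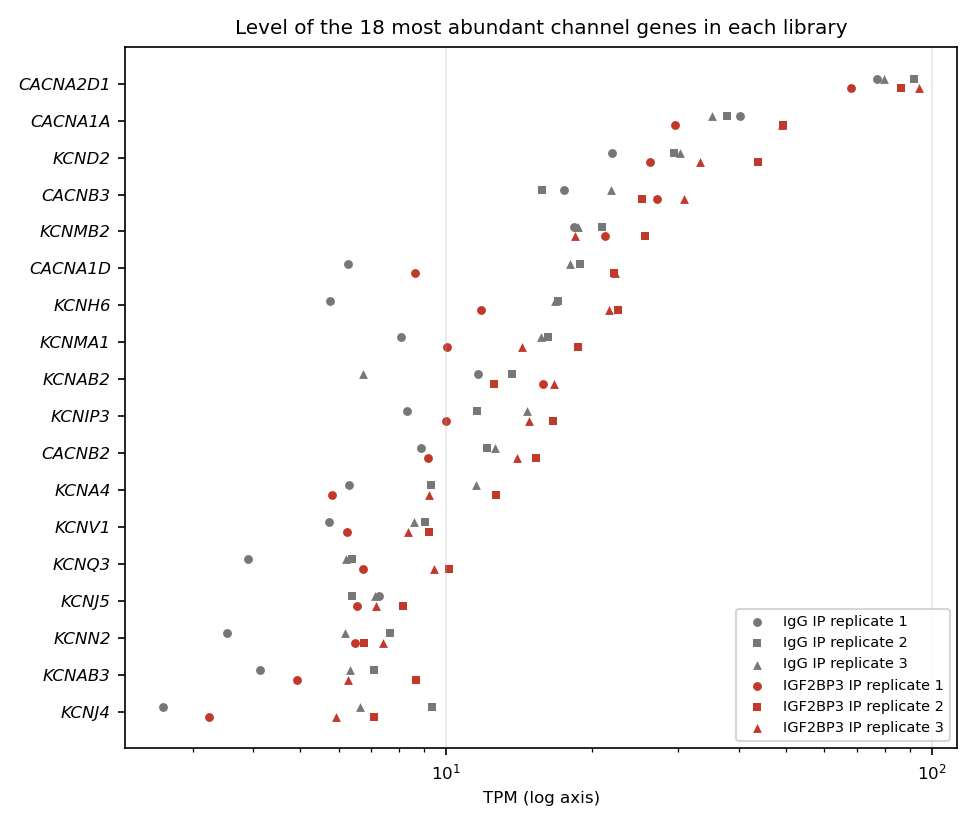
Level (TPM, log axis) of the 18 most abundant channel genes in each library, with IgG IP in gray and IGF2BP3 IP in red and the replicates by symbol. *CACNA2D1* was the most abundant in every library, at 68.2 to 94.2 TPM, and the replicate 1 libraries were the lowest of their group for *CACNA1D* and *KCNH6*, among others.

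Among calcium channel genes, the RNA of *CACNA2D1*, the α2δ subunit that brings channels to the membrane and binds gabapentin, was the most abundant channel RNA of all. It was at 77.2, 91.8 and 79.7 TPM with IgG and at 68.2, 86.4 and 94.2 TPM in the IGF2BP3 IP, and made up 16.7% to 25.0% of the summed level of all channel genes. *CACNA2D2*, a relative with the same role, was at 3.19 TPM on average. Of the pore-forming subunits, *CACNA1A* (P/Q-type, which drives transmitter release) was at 40.2 TPM and *CACNA1D* (L-type, active near the resting potential) at 16.03 TPM. *CACNA1D* was lower in replicate 1 of both groups, at 6.27 and 8.63 TPM, than in the other libraries, at 18.01 to 22.2 TPM. The other pore genes with 10 or more counts in each library were the T-type *CACNA1G* and *CACNA1H*, the N-type *CACNA1B* and the L-type *CACNA1C*, at means of 0.61 to 1.70 TPM. The β subunits, which chaperone the pore subunit, were led by *CACNB3* at 23.1 TPM and *CACNB2* at 12 TPM. None of the 8 γ subunit genes, several of which regulate AMPA receptors rather than calcium channels, reached 10 counts in each library, and *CACNG1*, *CACNG3*, *CACNG6*, *CACNG7* and *CACNG8* had no count.

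Sodium channel RNAs were scarce. Of the 10 pore genes only *SCN8A*, a channel of the axon initial segment, had 10 or more counts in each library, with 104 to 231 counts and a mean of 2.06 TPM. *SCN4A* and *SCN7A* had no count. Of the 4 β subunit genes, whose products are single-pass proteins that tune gating and act in cell adhesion, *SCN3B* was at 3.56 TPM and *SCN4B* at 0.53 TPM, while *SCN2B* had at most 1 count in a library. In TPM, *SCN3B* was above *SCN8A* in each library.

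Potassium channel genes were the most varied group, with 45 of 95 at 10 or more counts in each library. *KCND2*, a pore subunit of the A-type current that is inactivated within milliseconds, was at 22.0, 29.5 and 30.3 TPM with IgG and at 26.3, 43.9 and 33.4 TPM in the IGF2BP3 IP. Next by mean TPM were *KCNMB2* (20.5 TPM), an auxiliary subunit of the large-conductance calcium-activated channel, *KCNH6* (15.9 TPM), an ERG channel of the ether-a-go-go family, *KCNMA1* (13.8 TPM), the pore of the large-conductance channel, *KCNAB2* (12.9 TPM), a cytoplasmic β subunit of the Kv1 channels with an aldo-keto reductase fold, and *KCNIP3* (12.7 TPM), a calcium sensor that binds Kv4 channels such as *KCND2* and also acts as a transcriptional repressor. The most abundant members of the other families were *KCNA4* (9.12 TPM), *KCNQ3* (7.14 TPM), *KCNB2* (5.73 TPM) and *KCNC1* (3.38 TPM) among the pore subunits of delayed rectifiers, A-type channels and M-type channels, and *KCNV1* (7.85 TPM) among the silent subunits, which only work in heteromers. Of the channels not gated by voltage, the most abundant of each series were *KCNJ5* (7.11 TPM), a G protein-gated inward rectifier, *KCNN2* (6.34 TPM), a small-conductance calcium-activated channel, and *KCNK9* (2.58 TPM), a leak channel with only 6 to 18 counts in a library. No KCNE gene, a family of small subunits that modulate KCNQ and KCNH channels, reached 10 counts in each library, and *KCNE3*, *KCNE4* and *KCNE5* had none.

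The 28 genes without a count were *CACNA1S*, the skeletal muscle calcium channel, the 5 γ subunit genes and the 2 sodium channel genes above, and 20 potassium channel genes. The latter were *KCNAB1*, *KCNA10*, *KCNG4*, *KCNV2*, *KCNT2*, *KCNU1*, the 3 KCNE genes above, *KCNJ8*, *KCNJ13*, *KCNJ16*, *KCNJ18*, and 7 leak channel genes, *KCNK1*, *KCNK2*, *KCNK4*, *KCNK15*, *KCNK16*, *KCNK17* and *KCNK18*. A count of 0 allows a level of up to 3 counts in a library, which is 0.202 to 0.307 CPM depending on its depth and covers counting error only. The 48 genes with few counts had at most 39 in a library (*KCNN4*), and 20 of them never exceeded 5. They included the neuronal sodium channel genes *SCN1A*, *SCN2A* and *SCN3A*, with 2 to 18 counts in a library. The pain-related *SCN9A* and *SCN10A* had 0 to 3, and *SCN11A* had 7 to 16. The R-type calcium channel gene *CACNA1E* had 0 to 18.

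The order of levels depended on the length used. TPM rest on the effective length that the quantification gave each gene from its isoforms, and for some genes this was far below the length of the canonical transcript: 622 against 2543 bases for *KCNMB2*, 842 against 4176 for *KCNAB2* and 1837 against 8647 for *CACNA1A*. When normalized CPM were divided by the canonical length, *CACNA2D1*, *KCND2*, *KCNH6*, *CACNB3* and *KCNMA1* were the first 5, *CACNA1A* was number 6, *KCNMB2* number 14 and *KCNAB2* number 25. *CACNA2D1* ranked first on both scales, and *KCND2* and *CACNB3* were among the first 4 on both. *KCNK9*, the first of the KCNK series in TPM, had an effective length of 411 against 2393 bases. By canonical length it was number 52, below *KCNK3* at number 46.

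The comparison of the IGF2BP3 IP with the IgG IP asks which RNAs were enriched with the protein. An RNA was called when it differed by 1.5-fold or more and its p-value, adjusted by Benjamini-Hochberg over all 14507 tested genes, was under 0.05 in the quasi-likelihood test of edgeR. Of the 59 channel genes, 3 were called higher (5.09%) and 0 lower. In the background, 1.28% of the 13122 genes with 10 or more counts in each library and 1.16% of all tested genes were called higher, and 0.0% of tested genes lower. At an unadjusted p-value under 0.05, 17 of the 59 were higher (10.3% in the background) and 0 lower (3.19%), and 10 were at least 1.5-fold higher at any p-value (4.24%). A further 13 channel genes were tested with fewer than 10 counts in some library, and 0 of them passed, with a smallest adjusted p of 0.51 and 0 at an unadjusted p-value under 0.05 by edgeR.

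Most channel genes had a log2 fold change above 0. This was so for 47 of 59 (79.7%), against 48.4% of the background, and their median was 0.27 (range -0.39 to 1.04), against -0.01. In 16 channel genes all 3 IGF2BP3 IP libraries lay above all 3 IgG IP libraries in normalized CPM (counts scaled to the library size after TMM normalization), which is 27.1% against 12.5% of the background, and in 3 they all lay below (5.09% against 9.27%). Within the pairs of the same replicate number, the median log2 ratio of the 59 was 0.33, 0.17 and 0.22, with 46, 41 and 42 of 59 above 0. By ion, 10 of 11 calcium, 3 of 3 sodium and 34 of 45 potassium channel genes were above 0, with medians of 0.28, 0.68 and 0.25. By role, the pore genes (37 of 47, median 0.27) and the auxiliary genes (10 of 12, median 0.20) were close in these counts. Without the KCNJ, KCNK and KCNN genes, 39 of 49 were above 0 with a median of 0.28. These are counts of genes measured in the same 6 libraries, not of independent samples.

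**Figure D2:**
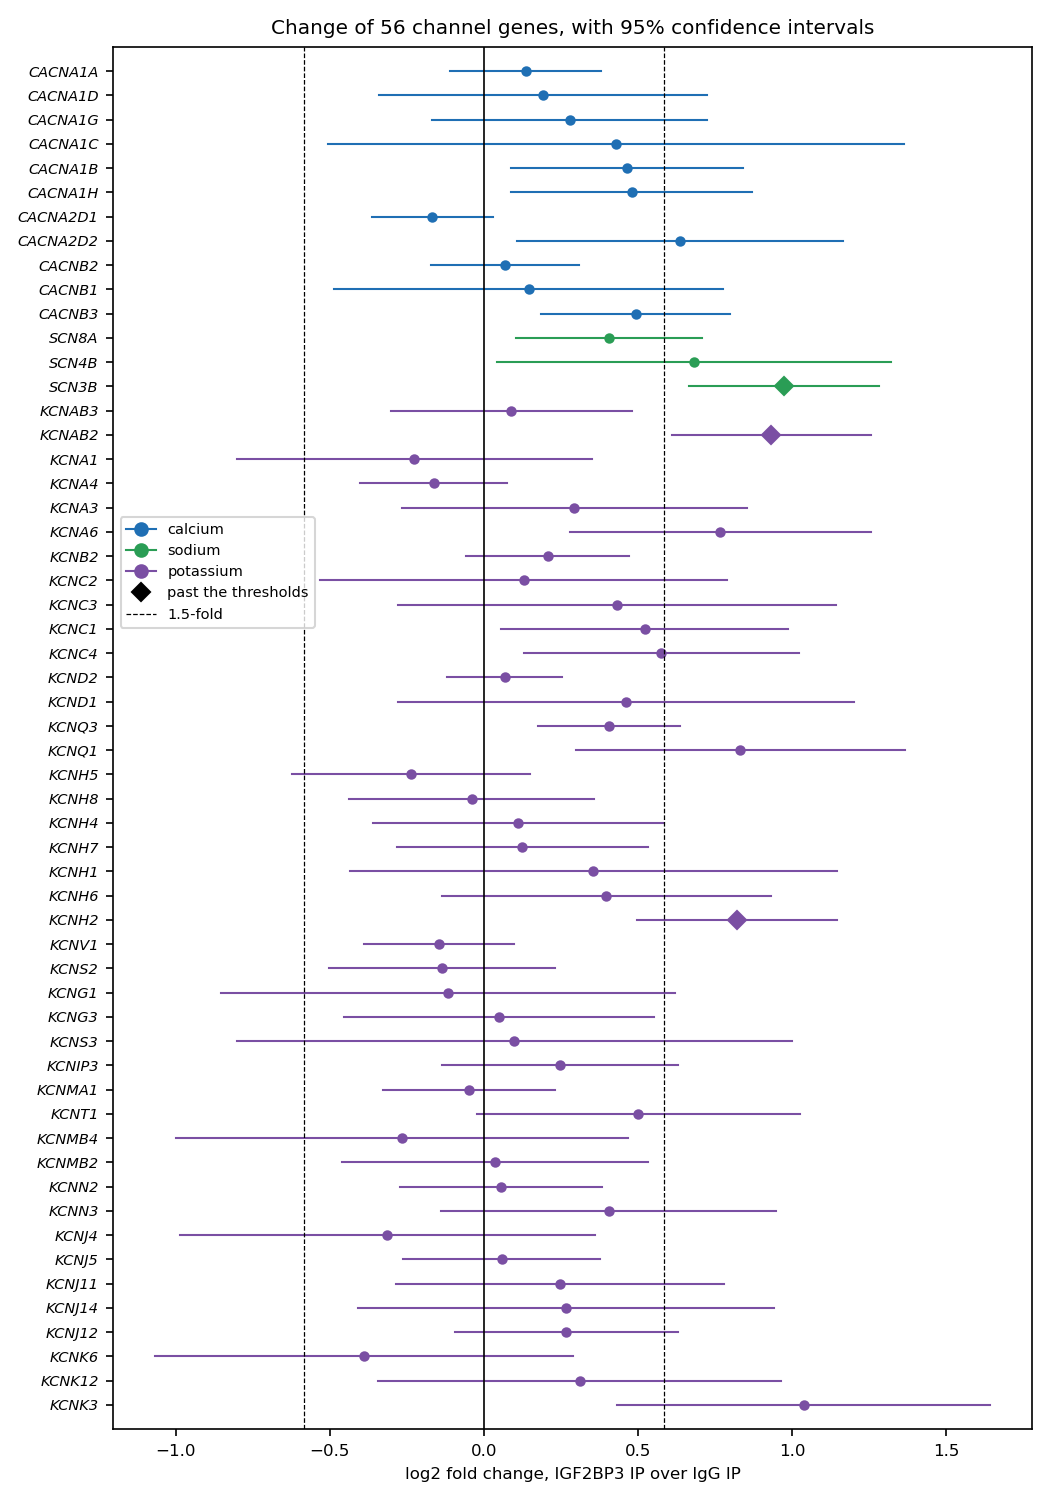
Fitted log2 fold change (IGF2BP3 IP over IgG IP, x axis) of 56 of the 59 channel genes with 95% confidence intervals from edgeR, by family and coloured by ion, with diamonds for genes past the thresholds and dashed lines at 1.5-fold. The points of 44 genes lie to the right of 0, the 3 diamonds are *SCN3B*, *KCNAB2* and *KCNH2*, and most intervals cross 0.

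*SCN3B* (ENSG00000166257.10), the sodium channel β3 subunit, had the clearest difference. The gene spans bases 123629187 to 123655244 of chromosome 11 (GRCh38, minus strand), and its canonical transcript has 7 exons. With IgG its counts were 98, 169 and 133, and with the IGF2BP3 antibody 232, 325 and 249, which gave normalized CPM of 10.6, 11.3 and 10.7 against 19.5, 24.6 and 20.2. The groups were far apart, and the IgG IP libraries lay within 1 CPM of each other. The means were 10.9 ± 0.38 and 21.4 ± 2.73 CPM (SD, n = 3 each), a log2 fold change of 0.97 ± 0.14 (SE, adjusted p = 0.017 from edgeR). *SCN4B*, the other measured β subunit gene, had 11 to 29 counts in a library and was at 0.68 on the log2 scale (adjusted p = 0.35), and all its IGF2BP3 IP libraries were above those of the IgG IP. *SCN8A*, the pore gene, was at 11.3, 13.9 and 13.2 CPM against 15.8, 17.5 and 17.7 CPM. It did not pass (log2 fold change 0.41, adjusted p = 0.23), although the groups did not overlap.

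*KCNAB2* (ENSG00000069424.15), the Kvβ2 subunit, spans bases 5990927 to 6101193 of chromosome 1 (plus strand) in 16 exons. With IgG its counts were 59, 93 and 72, and with the IGF2BP3 antibody 138, 148 and 153, or 6.40, 6.23 and 5.81 against 11.6, 11.2 and 12.4 CPM. Every IGF2BP3 IP library was well above every IgG IP library. The means were 6.15 ± 0.30 and 11.7 ± 0.64 CPM (SD, n = 3 each), with a log2 fold change of 0.93 ± 0.14 (SE, adjusted p = 0.021 from edgeR). In TPM the difference was smaller, at 11.6, 13.7 and 6.73 against 15.8, 12.6 and 16.7, and the groups overlapped. *NPHP4*, a gene of the primary cilium on the opposite strand, overlaps *KCNAB2* and had 47 to 107 counts in a library, and was at 0.57 on the log2 scale (adjusted p = 0.14). Whether the counting used the strand is not given in the sources used here, so reads of both genes may be mixed, and the part of *NPHP4* in the difference was not tested. *KCNAB3*, of the same family, was at 0.09 on the log2 scale (adjusted p = 0.88), and *KCNAB1* had no count.

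*KCNH2* (ENSG00000055118.16) encodes the hERG channel, which repolarizes the heart and is known for its block by many drugs. It spans bases 150944961 to 150978321 of chromosome 7 (minus strand) in 15 exons. With IgG its counts were 62, 90 and 76, and with the IGF2BP3 antibody 131, 140 and 144, and its normalized CPM were 6.72, 6.03 and 6.13 against 11, 10.6 and 11.7. Again the groups did not overlap and the spread within each was small. The means were 6.29 ± 0.37 and 11.1 ± 0.57 CPM (SD, n = 3 each), with a log2 fold change of 0.82 ± 0.14 (SE, adjusted p = 0.034 from edgeR). After a per-library correction for GC content the log2 fold change was 0.62 and the call was lost (adjusted p = 0.10), while *SCN3B* and *KCNAB2* were still called, at 0.99 (adjusted p = 0.018) and 0.79 (adjusted p = 0.042). With that correction 0.817% of the background genes were called higher.

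The other KCNH genes were not called. *KCNH6*, a close relative of *KCNH2* and the most abundant of the family, was at 27.1, 51.9 and 52.4 CPM with IgG and at 46.3, 65.7 and 62.02 CPM in the IGF2BP3 IP. Replicate 1 was the lowest library of each group, and the log2 fold change was 0.40 ± 0.24 (SE, adjusted p = 0.53). With the replicate number as a block the adjusted p was 0.0011, with a log2 fold change of 0.42 that stayed under 1.5-fold. *KCNH5*, an ether-a-go-go channel, lay lower in all IGF2BP3 IP libraries (5.75, 5.83 and 6.21 against 4.79, 5.59 and 4.71 CPM, log2 fold change -0.24, adjusted p = 0.62), though not in TPM. Of the 7 measured members of the family, 5 had a log2 fold change above 0, with a median of 0.12.

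The 3 calls rested on all libraries but those of replicate 1. They were kept without IgG IP replicate 1 or without IGF2BP3 IP replicate 1, with adjusted p of 0.013 to 0.046. When replicate 2 or 3 of either the IgG IP or the IGF2BP3 IP was left out, 0 channel genes passed with edgeR (11 to 18 were higher at an unadjusted p-value under 0.05, as were 982 to 1254 of the 14837 to 14932 genes tested), with adjusted p of 0.089 to 0.12 for *SCN3B*, 0.11 to 0.14 for *KCNAB2* and 0.14 to 0.20 for *KCNH2*. The calls of the whole table also fell in these fits, from 169 higher to 19 and 7 without IgG IP replicates 2 and 3, and to 0 and 23 without IGF2BP3 IP replicates 2 and 3. The log2 fold changes of the 3 genes stayed between 0.77 and 1.04 in all 6 fits without 1 library. With the TPM values and limma-trend in place of the counts, 0 genes of the whole table passed (on the log2(TPM + 1) scale, 12 channel genes with higher and 0 with lower values had an unadjusted p-value under 0.05, against 839 and 87 of all 14507). DESeq2, the test named in the methods, called the same 3 channel genes (2.12% of the background called higher). With the replicate number as a block, edgeR called 10 of the 59 higher (3.68% of the background) and 0 lower (0.061%), while DESeq2 with the same block called the 3 above. The 7 added by edgeR had adjusted p of 0.0014 to 0.020 and included *KCNK3*, *KCNQ1*, *KCNA6*, *CACNA2D2* and *KCNC4*, named here because of that fit. With the block and the GC correction together, edgeR still called *KCNK3* (adjusted p = 0.0049) and *KCNA6* (0.024). *KCNQ1* lost the call (adjusted p = 0.083), as did *CACNA2D2* and *KCNC4*, whose log2 fold changes fell to 0.53 and 0.42, under 1.5-fold.

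**Figure D3:**
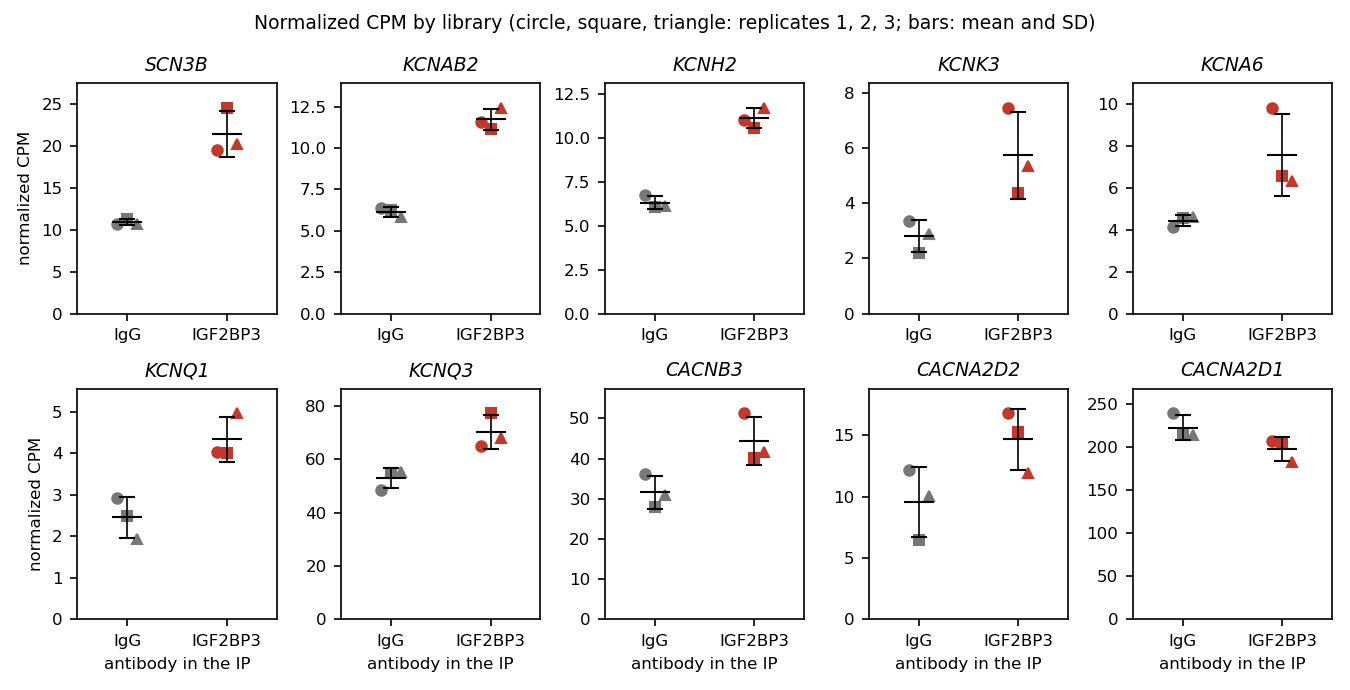
Normalized CPM of 10 channel genes in each library (points, by replicate) with the mean and SD of each group (n = 3). *SCN3B*, *KCNAB2* and *KCNH2* show separate groups, *KCNK3* and *KCNA6* a wider spread in the IGF2BP3 IP than with IgG, *CACNA2D2* a wide spread in both groups, and *CACNA2D1* slightly lower values in the IGF2BP3 IP.

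The KCNQ genes encode slow channels that hold the resting potential, with *KCNQ3* taking part in the neuronal M current and *KCNQ1* acting in the heart and epithelia. None of the family was called in the fit without a block. *KCNQ1* had 24 to 61 counts in a library (log2 fold change 0.83, adjusted p = 0.16, and 0.020 with the block). It overlaps the noncoding *KCNQ1OT1* of the opposite strand, which had 419 to 505 counts and a log2 fold change of -0.10. *KCNQ3*, with the most reads of the family, was at 48.5, 55.0 and 55.2 CPM against 64.9, 77.3 and 68.1 CPM. Its groups did not overlap, and the log2 fold change of 0.41 ± 0.10 (SE, adjusted p = 0.11, and 0.00023 with the block) was below 1.5-fold.

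In the other families of voltage-gated potassium channels, the fast delayed rectifiers of the KCNC series had 4 of 4 genes above 0 (median 0.48), with *KCNC4* at 0.58 (adjusted p = 0.25, and 0.0023 with the block) and *KCNC1* at 0.52 (adjusted p = 0.33). *KCNB2*, a slow delayed rectifier, was at 0.21 (adjusted p = 0.51). Of the Shaker-type KCNA genes, *KCNA6* was at 4.12, 4.56 and 4.598 CPM against 9.82, 6.57 and 6.34 CPM, with the highest value in replicate 1. Its log2 fold change was 0.77 (adjusted p = 0.16, and 0.0079 with the block), and it was 0.50 (adjusted p = 0.15) when replicate 1 of both groups was left out, a fit added after seeing the data. *KCNA4*, the most abundant of them and an A-type channel, lay on the other side in all libraries, at 30.4, 31.0 and 30.1 CPM against 24.9, 27.6 and 29.2 CPM. The difference was small, did not pass (log2 fold change -0.16, adjusted p = 0.57) and was not seen in TPM. *KCND2* was at 0.07 (adjusted p = 0.79), with 134 to 142 CPM with IgG and 134 to 155 CPM in the IGF2BP3 IP. The 5 silent subunit genes had a median of -0.12, and *KCNV1*, the most abundant, was at -0.15 (adjusted p = 0.62).

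Among calcium channel genes, 0 were called in the fit without a block. All 6 measured pore genes had a log2 fold change above 0, from 0.14 for *CACNA1A* to 0.48 for *CACNA1H* (adjusted p = 0.28). *CACNA1A*, with 623 to 935 counts in a library, was at 67.5, 62.7 and 52.8 CPM against 63.7, 70.6 and 66.5 CPM, so the groups overlapped (adjusted p = 0.65). *CACNA1D* was at 0.19 (adjusted p = 0.79), and its replicate 1 libraries were lower in both groups. *CACNB3* was at 36.1, 27.9 and 30.9 CPM with IgG and at 51.3, 40.2 and 41.7 CPM in the IGF2BP3 IP. Its groups did not overlap, with a log2 fold change of 0.49 ± 0.14 (SE, adjusted p = 0.15, and 0.00011 with the block) that was below 1.5-fold. The other β subunit genes were at 0.07 for *CACNB2* and 0.15 for *CACNB1*.

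The α2δ subunit genes lay on opposite sides of 0. *CACNA2D1* was at 239, 214 and 213 CPM with IgG and at 206, 205 and 182 CPM in the IGF2BP3 IP. Each IGF2BP3 IP library was below each IgG IP library, but the log2 fold change was only -0.17 (SE 0.09, adjusted p = 0.47, and 0.047 with the block) and short of 1.5-fold. With the GC correction it was -0.01, without the block (adjusted p = 0.99) and with it (adjusted p = 0.93), and DESeq2 with the block gave an adjusted p of 0.088. *CACNA2D2* was at 12.1, 6.43 and 10.1 CPM against 16.8, 15.3 and 11.95 CPM. Its groups overlapped slightly, and the log2 fold change was 0.64 ± 0.23 (SE, adjusted p = 0.29, and 0.0038 with the block). *CACNA2D1* alone held 0.0186% to 0.0226% of the counts in a library. The share of counts on all other channel genes had a ratio of 1.19 between the groups (0.0843% ± 0.00789 and 0.1003% ± 0.00654, SD, n = 3 each, p = 0.1 by an exact two-sided permutation test, the smallest possible). Leaving out a gene that was lower in the IGF2BP3 IP raises the ratio by construction, from 1.13 with *CACNA2D1* included. The value is therefore a description and adds nothing to the result for all channel genes.

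Of the channels that are not gated by voltage, 8 of 10 had a log2 fold change above 0, with a median of 0.26, and 0 were called in the fit without a block. *KCNK3*, a pH-sensitive leak channel, had the largest log2 fold change of all 59 channel genes, at 1.04 ± 0.27 (SE, adjusted p = 0.12, and 0.0014 with the block). It was at 3.36, 2.21 and 2.90 CPM against 7.47, 4.38 and 5.37 CPM. The groups did not overlap, but with 31 to 89 counts in a library the spread was wide. *KCNK6*, a leak channel with 18 to 50 counts, had the lowest log2 fold change, at -0.39 (adjusted p = 0.64), and *KCNJ4*, an inward rectifier, was at -0.31 (adjusted p = 0.71). *KCNJ4* was at 5.85, 14.1 and 10.4 CPM with IgG and at 6.21, 9.82 and 8.78 CPM in the IGF2BP3 IP, so the IgG IP libraries spanned the others. *KCNJ5* and *KCNN2* were both at 0.06 (adjusted p = 0.91 and 0.92). *KCNJ12* (68 to 140 counts) has a nearly identical copy, *KCNJ18*, which was at 0, so the reads of these genes cannot be assigned with certainty. The subunits of the calcium-activated large-conductance channel are not among these 10 genes. They were near 0 or below it, at -0.05 for *KCNMA1*, 0.04 for *KCNMB2* and -0.26 for *KCNMB4* (adjusted p = 0.91, 0.97 and 0.79).

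The difference moved with base composition. Over the 59 channel genes, the log2 fold change and the GC content of the canonical transcript had a Pearson correlation of 0.44 and a Spearman correlation of 0.47, against 0.41 and 0.45 over 13099 genes with 10 or more counts in each library. These are correlations across genes that share the same libraries and are a description only. The channel genes had a median GC content of 55.1%, against 47.5% in the background, and a median transcript length of 5263 bases, against 3165. With transcript length the Pearson correlation was 0.07, against 0.16 over the 13099 genes. The 29 channel genes above the median GC content had a median log2 fold change of 0.43, with 27 above 0, and the 30 others a median of 0.07, with 20 above 0. After the GC correction these medians were 0.26 and 0.13. *KCNH2* had 66.8% GC and *KCNAB2* 60.6%, while *SCN3B*, at 47.4%, was near the background median and *CACNA2D1* had 37.2%. The part of base composition in the difference was not tested beyond the corrected fit.

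**Figure D4:**
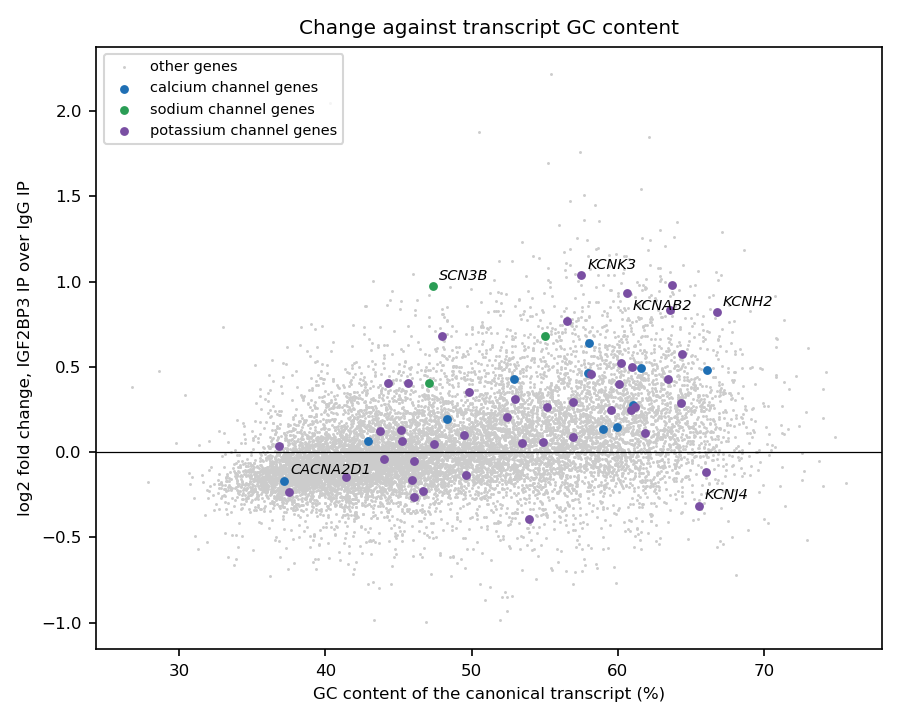
Log2 fold change (IGF2BP3 IP over IgG IP, y axis) against the GC content of the canonical transcript (x axis, %), with channel genes coloured by ion over all other genes with 10 or more counts in each library in gray. The channel genes lie largely in the GC-rich part of the gray cloud and follow its upward course (Pearson 0.44 and 0.41), and *SCN3B* lies at 47.4% and 0.97.

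Many channel genes share their locus with another transcribed gene. Of the 59, 30 overlapped a gene with counts, and for 13 the overlapping gene had at least 10% of the counts of the channel gene. Besides *KCNAB2* and *KCNQ1*, these included *CACNA1D* with *DCP1A* of the opposite strand (490 to 922 counts, log2 fold change 0.04), *KCNC1* with *SERGEF* of the opposite strand (57 to 105 counts, 0.31) and *KCNA6* with *GALNT8* of the same strand (8 to 26 counts, 0.60). *SCN3B* and *KCNH2* were not among the 30.

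Known partners of these channels were counted in the same way. A list of 43 other voltage-sensing or leak channels and partner proteins had 22 genes with 10 or more counts in each library and 7 with no count. Of the 22, 10 had a log2 fold change above 0 (48.4% of the background), with a median of -0.01. As for calls, 0 were higher (1.28% of the background) and 0 lower. In 5 of the 22 all IGF2BP3 IP libraries lay above all IgG IP libraries in normalized CPM (12.5% of the background). In 2 they all lay below (9.27%). *FGF12*, an intracellular binding partner of sodium channels, was far above any sodium channel gene in level, at a mean of 192 TPM, and -0.11 on the log2 scale (adjusted p = 0.60). The calmodulin genes, whose common product is the calcium sensor of calcium, sodium and KCNQ channels, included *CALM3* and *CALM2*. *CALM3* was at 139, 116 and 128 CPM against 184, 162 and 169 CPM. Its groups did not overlap (log2 fold change 0.43, adjusted p = 0.068, and 7.6e-06 with the block), but the difference was below 1.5-fold. *CALM2* was at -0.20 (adjusted p = 0.42). *UNC79* and *FAM155B*, which belong to the sodium leak channel complex, were at 0.45 and 0.58 (adjusted p = 0.098 and 0.14). *UNC80*, of the same complex, had 277 to 516 counts and was at -0.01 (adjusted p = 0.98), while the pore gene, *NALCN*, had 0 to 4 counts in a library.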

How the data were processed

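RIP-seq of WaGa cells comprised 3 IgG IP and 3 IGF2BP3 IP libraries, grouped by the sample labels. The authors aligned 150 bp paired-end reads to GRCh38 with STAR 2.7.9a and used GENCODE version 37 and RSEM. The deposited values are unnormalized whole-number counts for each gene, with TPM and FPKM values beside them. The program that made the counts and its use of strand are not given in the sources used here. Totals ran from 9758759 to 14886414 counts, and intervals cover these libraries only.

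The counts were analysed in edgeR 4.0.16 under R 4.3.3 (filterByExpr, TMM factors, quasi-likelihood fit on condition alone). The biological coefficient of variation was 13.4%. Alternatives used DESeq2 1.42.0 (independent filtering at 0.1), limma 3.58.1 on the counts and on log2(TPM + 1) or log2(TPM + 0.1), other size factors and filters, loess corrections (span 0.5) for GC content and effective length, a replicate block, and leaving out libraries. The FPKM values that the authors deposited served only to derive effective lengths with the counts. Coordinates, GC content and sequences came from GENCODE version 44. The edgeR, DESeq2 and limma fits were tested on simulated counts, which did not cover the TPM scales. In the simulation, edgeR without a block found 65% of the genes changed 2-fold and 46% of all 200 changed genes, with 9 false calls. Many real changes of this size would thus be missed.

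Whether same-numbered libraries share a lysate is not stated. Their deviations from the group means correlated at 0.57, 0.28 and 0.23 across genes, so the numbers were taken as pairs. Cross pairs of replicates 2 and 3 reached 0.28 and 0.27, so for replicates 2 and 3 the correlations cannot tell pairs from cross pairs. The fits with a replicate block rest on this pairing. The members and gene lists were chosen with earlier results of these data known. The genes named were the most abundant of each family and the 10 most abundant of all, those past the thresholds, the 6 largest and 6 smallest log2 fold changes, and the 5 smallest p-values among genes whose groups did not overlap, in each direction. Others were named after their values were seen. Some genes that met this rule are not reported here and carry no label in the plots.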

Additional observations from a re-analysis of the deposited data

How the results depend on the processing

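Of the alternative fits over 28 channel genes, 531 results kept their direction and their side of the thresholds, 19 lost a call, 13 gained one and 25 changed sign, all of the latter in genes that were not called. The number of channel genes called higher, 3 here, was 6 without a filter on low counts, 10 with the replicate block in edgeR, 7 with the block and GC correction, 8 with the block and length correction, 8 without replicate 1 of both groups (a fit chosen after seeing the data), 0 with limma-trend on log2(TPM + 1) or log2(TPM + 0.1), and 0 to 3 when single libraries were left out. None was called lower in any of these fits. For all genes, 169 higher and 0 lower here, the numbers were 281 and 0 with DESeq2, 359 and 1 without a filter, 517 and 15 with the replicate block, 321 and 1 with the block in DESeq2, 108 and 0 with GC correction, 349 and 24 with GC correction and block, 461 and 12 with length correction and block, 466 and 8 without replicate 1, 0 and 0 with limma-trend on either TPM scale, and 0 to 244 higher without single libraries. The median log2 fold change of the channel genes was 0.42 with log2(TPM + 0.1), where all genes had 0.13, 0.18 with GC correction and 0.17 with GC correction and replicate block, and 0.21 to 0.31 without single libraries.

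Signs changed as follows. With log2(TPM + 1) and log2(TPM + 0.1), *KCNA1* was at 0.10 and 0.25, *KCNA4* at 0.0031 and 0.0007, *KCNH5* at 0.0154 and 0.0306, *KCNV1* at 0.0318 and 0.0365 and *KCNMA1* at 0.12 and 0.13. With length correction *KCND2* was at -0.014, and at -0.0156 with the block too. With GC correction *KCNN2* was at -0.0074 and *KCNJ5* at -0.0283, and with the block at -0.0043 and -0.0199. When libraries were left out, *KCNMA1* ranged from -0.13 to 0.0536, *KCNMB2* from -0.15 to 0.21, *KCNMB4* from -0.53 to 0.0691 (without replicate 1 of both groups), *KCNN2* from -0.0339 to 0.17, *KCNJ4* from -0.57 to 0.0099 and *KCNJ5* from -0.0313 to 0.19. The causes were not tested. Low counts limit genes such as *CACNA1C* and *SCN4B*.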
